A study of Mus musculus with 48 samples.

Results

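The daily rhythm of gene expression was described in the β cells of control mice, in the 12 libraries of sorted β cells from animals that received no doxycycline, out of 48 libraries in the series. These libraries are the ones titled as control β cells. They cover 6 zeitgeber times (ZT, hours after lights on) from ZT0 to ZT20 in steps of 4 h, with 2 libraries per time. All mice of the series were males aged 6 to 8 weeks that carried ProGcg-Venus and RIP-Cherry, the clock reporter PER2::Luc, and the toxin system made of Insulin-rtTA and TET-DTA. They were kept under 12 h of light and 12 h of dark, with food restricted to the night from 10 days before the experiment. Venus is driven by the proglucagon promoter and Cherry by a rat insulin promoter, and both are the fluorescent reporters by which α and β cells can be sorted. The control animals therefore also carried the doxycycline-controlled diphtheria toxin transgene, but drank water with 2% sucrose and no drug. Some of the animals were moved to inverted light and feeding cycles for 2 weeks so that all times could be collected, and the labels do not say which libraries came from them. The labels do not say whether the 2 libraries of a time came from separate or pooled animals, so a p-value here measures the spread between libraries, which may be partly technical. For comparison, 12 libraries of control α cells and 12 libraries of β cells from mice given 300 mg of doxycycline in the same sucrose water were used, which cover the same times.

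The molecular clock of mammalian cells is a feedback loop. The activators BMAL1 (gene Arntl) with CLOCK or NPAS2 bind E-box sequences and switch on the PER and CRY repressors, which later block their own activators. A second loop adds the REV-ERB repressors (Nr1d1 and Nr1d2) and the ROR activators, which compete for the same element at Arntl, and a further set of output factors (Dbp, Tef, Hlf and their antagonist Nfil3) acts on D-box sequences. In β cells this clock is known to bear on insulin secretion and on the proliferation of the cells.

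Total estimated counts were 22.3 to 28.6 M in the 5 libraries of the earlier sequencing run and 51.4 to 69.9 M in the 7 libraries of the later run. Replicate 1 of each time after ZT0 was sequenced in the earlier run, and all other libraries, including both of ZT0, in the later one. The sort is visible in the hormone transcripts, since Ins2 took 17.5 to 26.4% and Ins1 6.23 to 9.62% of the counts of a library, while Gcg of α cells took 0.00453 to 0.0254%. The first principal component of log2 CPM (counts scaled to the library's total) held 24.99% of the variance. On it the libraries of ZT8 lay far apart (32.6 and -0.30), as did those of ZT12 (17.2 and -14.9) and ZT20 (-18.97 and 5.43). Those of ZT0 lay close (-20.8 and -19.1). The second component held 17.05% of the variance and split replicate 1 from replicate 2 at every time. Replicate 1 lay at 7.10 to 21.03 and replicate 2 at -18.66 to -11.97. This included ZT0 (12.80 and -12.31), where both libraries came from the later run and the term for the run does not separate them. Markers of acinar cells, the enzyme-making cells of the exocrine pancreas, summed to 3.63 CPM in the lowest library (ZT12 replicate 2) and 288 CPM in the highest (ZT8 replicate 2). Of 13 acinar markers measured, 0 were called rhythmic and 10 had an unadjusted p under 0.05, all with fitted peaks between 9.35 and 10.3 h. Over all genes tested, 1.46% were called and 17.4% had such a p. Macrophage and dendritic markers summed to 58.9 to 430.3 CPM, with 0 of 15 called and 0 with an unadjusted p under 0.05. Of the markers of other islet and pancreatic cells, 0 of 9 were called for α cells, 0 of 6 for δ, PP and ε cells, 1 of 6 for duct (Spp1), 0 of 6 for endothelium and 0 of 9 for stellate cells and fibroblasts. Part of any of these in the rhythms was not tested beyond the fits with the acinar and macrophage markers as covariates.

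A 24 h rhythm was called for 241 of 16461 genes tested (1.46%), from a cosine and a sine fitted together with a term for the run, at an adjusted p under 0.05 by the quasi-likelihood test of edgeR. At an unadjusted p under 0.05 there were 2864 genes (17.4%). The amplitude is the height of the fitted peak above the mean on the log2 scale, so that an amplitude of 1 means a 4-fold difference between fitted peak and trough. Among the called genes the median amplitude was 0.55, against 0.19 for all genes tested. An amplitude of at least 0.5 was fitted for 147 called genes and of at least 1 for 28. The number of calls changed when single libraries were left out. Without ZT20 replicate 2 it was 700, and without ZT0 replicate 2, ZT4 replicate 1, ZT4 replicate 2, ZT8 replicate 1, ZT8 replicate 2, ZT12 replicate 2, ZT16 replicate 1, ZT16 replicate 2 and ZT20 replicate 1 it was 136, 34, 89, 20, 99, 29, 19, 55 and 39 in that order. Without either of the other two libraries it was 198 and 168. With the mean of the acinar markers as a covariate it was 80. The calls of Arntl, Cpt1a, St3gal1, Spon2, Trib1, Mdm1, Diras2, Tubb2a and Chordc1 held without each of the 12 libraries in turn, and every other call of a single gene described below was lost without at least 1 of them. The fits without a library also differed in the genes that passed the filter, with 17172 to 17306 tested against 16461. Their number of genes with an unadjusted p under 0.05 was 2146 to 3881, against 2864 with all libraries. Of the 241 calls, 69 had an adjusted p under 0.03. What sets the number of calls was not tested, and the parts of the library, the filter and the threshold were not told apart. Since RNA was taken from many cells at once, fewer cells of a type and less RNA per cell cannot be told apart.

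The called rhythms peaked more often within the light or the dark phase than around lights on or lights off. Peaks from ZT2 to ZT10 were fitted for 113 genes (0.686% of those tested) and peaks from ZT14 to ZT22 for 94 genes (0.571%). The remaining 34 called genes peaked around lights on or lights off. The night count was the higher in some fits. Day and night counts were 133 and 139 with ZT0 left out, and 60 and 72 in the earlier run alone. They were 56 and 59 without ZT0 replicate 2, 38 and 41 without ZT4 replicate 2, and 43 and 48 without ZT8 replicate 2. In all other fits the day count was the higher. In windows of 4 h, the window centred on ZT8 held 62 called genes and the one on ZT4 held 51, against 16 at ZT0 and 18 at ZT12. Genes with an amplitude of at least 0.5 were more numerous by day as well, with 42 in the ZT8 window and 35 in the ZT4 window, against 21 at ZT16 and 23 at ZT20. The fitted peaks of all genes tested, called or not, had a similar 2-part shape, with 3135 and 3022 genes in the ZT4 and ZT8 windows, 3004 and 3548 at ZT16 and ZT20, and 2182 and 1570 at ZT0 and ZT12. No difference between the windows was tested.

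**Figure D1:**
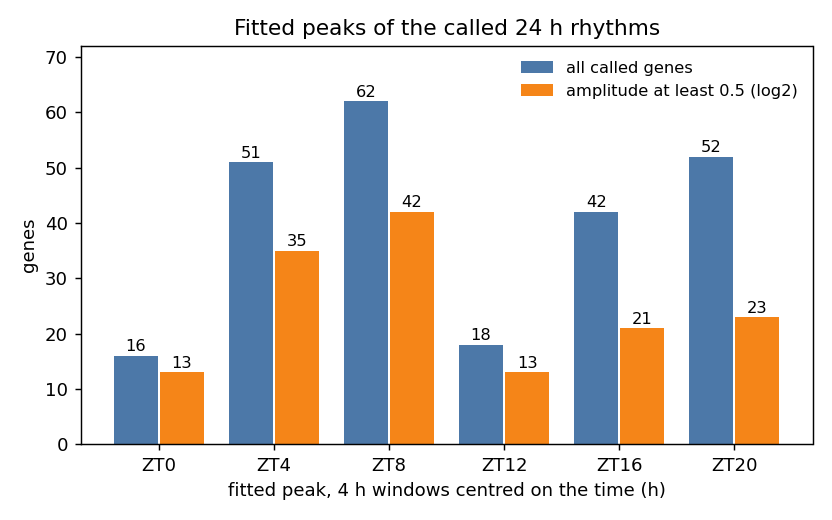
Number of genes called rhythmic in control β cells by fitted peak, in 4 h windows centred on each zeitgeber time (x axis), for all 241 called genes (blue) and for the 147 with an amplitude of at least 0.5 (orange). The bars stand highest at ZT8 (62 genes) and lowest at ZT0 (16 genes).

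Beside 1.46% of all genes tested, 3 of 6 measured clock activators and ROR receptors were called. Arntl and Npas2 among them peaked within a few hours of lights on. Arntl (ENSMUSG00000055116.8, chr7:113207465-113314126, GRCm38) encodes the activator BMAL1, without which the loop does not run. In this and all later sentences of this kind the first value of a pair is replicate 1 and the second replicate 2, in CPM. Arntl stood at 36.5 and 24.8 at ZT0, 20.04 and 9.73 at ZT4, 4.76 and 5.31 at ZT8, 3.63 and 5.10 at ZT12, 14.4 and 9.73 at ZT16, and 18.8 and 15.2 at ZT20. Both ZT0 libraries were above all others, and all 4 libraries of ZT8 and ZT12 were below all others. The fitted amplitude was 1.37 ± 0.16 (SE) with a peak at 22.8 ± 0.43 h, a 6.72-fold range from trough to peak (adjusted p = 0.0116), and the call held without each library in turn.

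Npas2, which can replace CLOCK as the partner of BMAL1, had the largest amplitude of the clock genes at 2.27 ± 0.32, with a peak at 1.4 ± 0.51 h (adjusted p = 0.0205). Its level was low, at 12.6 and 4.52 CPM at ZT0 and 11.1 and 2.76 at ZT4, and between 0.328 and 1.22 CPM in the 8 libraries of ZT8 to ZT20. These groups did not overlap. The call was lost without ZT4 replicate 1 or ZT12 replicate 2. Clock had a fitted amplitude of 0.27 and an adjusted p of 0.243, and Rora one of 0.14 and an adjusted p of 0.361, so neither was called.

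**Figure D2:**
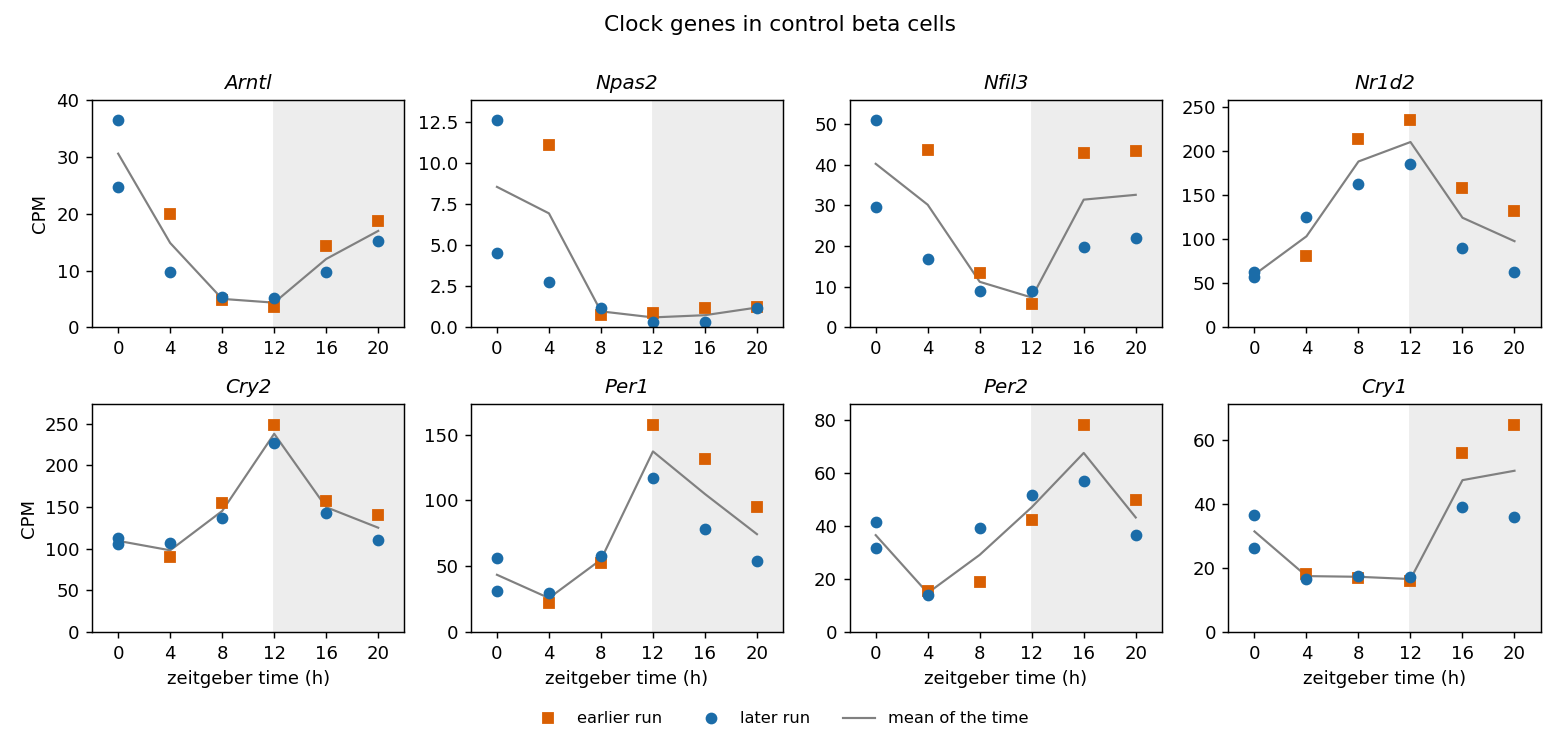
CPM (y axis, from 0) of 8 clock genes called rhythmic in control β cells against zeitgeber time in hours (x axis), 1 point per library, with orange squares for the earlier and blue circles for the later sequencing run, a grey line through the mean of the 2 libraries of each time, and the dark phase shaded. Arntl, Npas2 and Nfil3 stand lowest at ZT8 to ZT12, Nr1d2 and Cry2 highest at ZT12, and Cry1 highest at ZT16 and ZT20.

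Of the PER and CRY repressors and Ciart, a repressor of BMAL1 kept in the same list, 4 of 6 genes were called. Over all genes tested the share was 1.46%. The 4 called repressors had fitted peaks from dusk to late night. Cry2 came first, at 12.9 ± 0.67 h (amplitude 0.53 ± 0.09, adjusted p = 0.0404), Per1 followed at 14.8 ± 0.58 h (1.04 ± 0.16, adjusted p = 0.0318), Per2 at 16.2 ± 0.65 h (0.90 ± 0.15, adjusted p = 0.0404) and Cry1 at 19.5 ± 0.51 h (0.91 ± 0.12, adjusted p = 0.0157). No difference between these peak times was tested. Cry1 (ENSMUSG00000020038.10, chr10:85131700-85185064), the late repressor of the loop, stood at 36.6 and 26.3 CPM at ZT0, 18.2 and 16.7 at ZT4, 16.9 and 17.6 at ZT8, 15.9 and 17.2 at ZT12, 56.0 and 39.0 at ZT16, and 64.8 and 36.1 at ZT20. From ZT4 to ZT12 the 6 libraries lay between 15.9 and 18.2 CPM and below all others, so that the transcript was flat from ZT4 to ZT12 and higher in each library of ZT16, ZT20 and ZT0. Per1 had its highest levels at ZT12 (157 and 117 CPM) and ZT16 (131 and 78.3) and its lowest at ZT4 (22.1 and 29.3). Per2 was highest at ZT16 (78.2 and 57.0 CPM) and lowest at ZT4 (15.3 and 14.05). The call of Cry1 was lost without ZT8 replicate 1 or ZT20 replicate 1, that of Per1 without 6 of the 12 libraries and those of Per2 and Cry2 without 9 of 12. Per3 had an amplitude of 1.12 ± 0.24 with a peak at 13.2 h and was not called (adjusted p = 0.0754). Cry2 overlaps D930015M05Rik, and since the kit does not mark strand, reads of overlapping genes cannot be told apart. The same holds for Pde10a, Fh1, Syt4, Irs2 and Tef below.

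The promoter stretches of Cry1, Per1 and Arntl are shown because the clock's own elements can be read in them. They run from 170 bases before to 30 bases after the start given by RefSeq on GRCm38.p6, 5′ to 3′ on the gene's strand, with the E-box CACGTG in capitals. For Arntl 30 bases around its ROR element (RORE) are shown, which lie 17 to 46 bases after a RefSeq start of the gene, with the match in capitals.
Cry1: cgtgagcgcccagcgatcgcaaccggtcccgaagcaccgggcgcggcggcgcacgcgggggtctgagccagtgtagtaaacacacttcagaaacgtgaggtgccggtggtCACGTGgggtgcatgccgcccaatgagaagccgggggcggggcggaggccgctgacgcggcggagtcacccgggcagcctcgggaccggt
Per1: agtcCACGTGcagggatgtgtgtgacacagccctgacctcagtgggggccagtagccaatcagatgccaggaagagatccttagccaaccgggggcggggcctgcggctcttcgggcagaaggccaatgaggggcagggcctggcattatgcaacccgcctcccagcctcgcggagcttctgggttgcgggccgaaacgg
Arntl: gggaaggcagAAAGTAGGTCAgggacggag
They lie at chr10:85185025-85185224 (minus strand), chr11:69098779-69098978 (plus strand) and chr7:113207527-113207556 (plus strand). The E-box starts 60 bases before the start of Cry1 and 166 bases before that of Per1. In windows of 300 bases searched on both strands, 3 of the 5 genes of this list with a window held CACGTG (Cry1, Per1 and Ciart, which was not called), against 8.09% of all 27025 genes in the promoter table and 11.2% of the 11718 tested genes with a window. A RORE was found in 1 of 5 clock activators and ROR receptors (Arntl) and in 0.459% of all genes of the table. A match is a stretch of letters and no evidence of binding. Of the 241 called genes, 181 have a window in the table. CACGTG was found in 29 of these (16.02%), against 11.2% of the tested genes with a window. A RORE was found in 3 of them (1.66%), against 0.222% of the tested genes with a window. Neither difference was tested.

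Of the REV-ERB and DEC repressors, 1 of 4 was called, beside 1.46% of all genes tested. Nr1d2, which encodes REV-ERBβ, stood at 56.8 and 63.4 CPM at ZT0, 81.7 and 125 at ZT4, 214 and 163 at ZT8, 235 and 186 at ZT12, 159 and 90.6 at ZT16, and 132 and 63.5 at ZT20. The 4 libraries of ZT8 and ZT12 were above all others. Its amplitude was 0.76 ± 0.12 with a peak at 10.8 ± 0.61 h (adjusted p = 0.0318), against 22.8 h for Arntl. The call was lost without 6 of the 12 libraries. Of the D-box factors, Nfil3, the repressor of the group, was called with an amplitude of 1.22 ± 0.20 and a peak at 22.4 ± 0.62 h (adjusted p = 0.0430), and the call was lost without 10 of the 12 libraries. Tef had an amplitude of 0.70 ± 0.14 and a peak at 12.4 h and was not called (adjusted p = 0.0694). Of 8 kinases and ubiquitin ligases that act on clock proteins, 0 were called and 0 had an unadjusted p under 0.05. Over all genes tested these shares were 1.46% and 17.4%.

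Nr1d1, Dbp, Ciart and Hlf, which belong to the most strongly cycling transcripts of many tissues, were not called here, and their levels in the night differed between the runs. At ZT8 the runs parted as well for Nr1d1 and Dbp. Nr1d1 (REV-ERBα) stood at 195 and 83.4 CPM at ZT0, 124 and 155 at ZT4, 351 and 135 at ZT8, 152 and 114 at ZT12, 466 and 103 at ZT16, and 512 and 32.8 at ZT20. At ZT20 the library of the earlier run thus held the highest and that of the later run the lowest value of the gene. Fitted by run, its peak was at 5.84 h in the later and 18.1 h in the earlier run, and over both runs the amplitude was 0.12 ± 0.30 (adjusted p = 0.972). Dbp, an output factor, read 182 and 73.1 CPM at ZT8 but 111 and 17.5 at ZT20, with an amplitude of 0.65 ± 0.25 and an adjusted p of 0.286. Its fitted peak was 8.25 h in the later and 12.9 h in the earlier run. Ciart and Hlf likewise stood at 59.9 and 64.0 CPM in the earlier and 4.62 and 17.7 CPM in the later library of ZT20. A difference of the wave between runs was tested for all 16461 genes and was called for 0 (707 at an unadjusted p under 0.05), and the unadjusted p was 0.127 for Nr1d1 and 0.128 for Dbp. In α cells of control mice Nr1d1 stood at 22.3 and 42.4 CPM at ZT4, 96.1 and 67.7 at ZT8, 53.1 and 58.7 at ZT12, 18.2 and 19.2 at ZT16, and 6.92 and 8.25 at ZT20, with a fitted amplitude of 1.72 and a peak at 8.997 h. In doxycycline β cells it stood at 165 and 19.1 CPM at ZT4, 166 and 92.6 at ZT8, 147 and 76.2 at ZT12, 84.1 and 32.6 at ZT16, and 158 and 149 at ZT20, so that the runs parted there as well, most at ZT4. Nr1d1 overlaps Thra and Dbp overlaps Sphk2 on the genome, and the share of such reads was not tested.

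**Figure D3:**
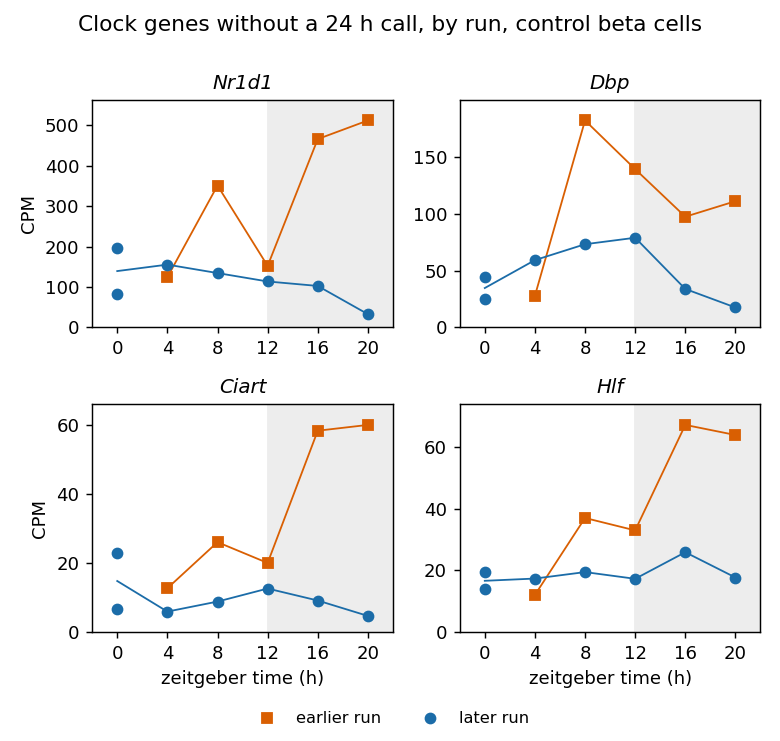
CPM (y axis, from 0) of 4 clock genes that were not called in control β cells, against zeitgeber time in hours (x axis), 1 point per library with a line through each run's mean at a time (orange squares, earlier run; blue circles, later run) and the dark phase shaded. The runs part at ZT16 and ZT20, where Nr1d1 reads 466 and 512 CPM in the earlier and 103 and 32.8 CPM in the later run. Nr1d1 and Dbp also part at ZT8.

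Across the 241 called genes the 2 runs gave close peak times. Fitted by run, the peaks of 231 lay within 3 h and those of all 241 within 4 h of each other, with a median gap of 1.15 h. This is a description, since a gene whose runs disagree is less likely to be called over both. Taken alone, the earlier run called 142 genes from 5 libraries and the later run 1 gene from 7 libraries.

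Outside the clock, the rhythm with the lowest p was that of Cpt1a (ENSMUSG00000024900.4, chr19:3323301-3385732), the enzyme that admits long-chain fatty acids to the mitochondria for oxidation. It stood at 43.5 and 41.9 CPM at ZT0, 62.8 and 66.6 at ZT4, 74.8 and 76.2 at ZT8, 75.3 and 62.5 at ZT12, 30.7 and 34.5 at ZT16, and 28.4 and 29.3 at ZT20. The 6 libraries of ZT4 to ZT12 were all above the others, and the 2 libraries of each time lay closer together than these 2 sets of libraries. The amplitude was 0.75 ± 0.07 with a peak at 7.6 ± 0.35 h (adjusted p = 0.00728), and the trough fell in the night, when the mice were fed. The call held without each of the 12 libraries and with the acinar markers as a covariate (adjusted p = 0.0154).

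Other daytime rhythms that held without each library were those of St3gal1 and Spon2. St3gal1, a sialyltransferase of the Golgi, was at 46.5 to 51.8 CPM in the 4 libraries of ZT0 and ZT4 and at 19.99 to 25.9 CPM in the 4 libraries of ZT12 and ZT16, with an amplitude of 0.60 ± 0.07 and a peak at 3.2 ± 0.44 h (adjusted p = 0.0116). Spon2, a secreted matrix protein, stood at 22.2 and 27.1 CPM at ZT0, 39.4 and 39.1 at ZT4, 39.6 and 41.1 at ZT8, 18.3 and 20.3 at ZT12, 5.01 and 8.59 at ZT16, and 9.71 and 18.7 at ZT20. Its 4 libraries of ZT4 and ZT8 were above all others, and the range from fitted trough to peak was 5.08-fold (amplitude 1.17 ± 0.13, peak 5.3 ± 0.45 h, adjusted p = 0.0116). Slc41a3, a magnesium transporter, fell from 45.6 and 23.9 CPM at ZT0 to 5.62 and 6.85 at ZT16 (amplitude 1.24 ± 0.15, peak 2.7 ± 0.45 h, adjusted p = 0.0116), and lost its call without ZT4 replicate 1. Pcdh15, a protocadherin, fell from 34.6 and 32.6 CPM at ZT0 to 8.79 and 12.0 at ZT20 (amplitude 0.88 ± 0.11, peak 3.7 ± 0.47 h, adjusted p = 0.0116), and also lost its call without ZT4 replicate 1. Hdac9, a histone deacetylase, had an amplitude of 1.01 ± 0.14 and a peak at 5.5 h (adjusted p = 0.0231), and Serpina7, the thyroxine-binding globulin, one of 1.27 ± 0.20 and a peak at 7.9 h (adjusted p = 0.0255). Their calls were lost without 4 and 6 of the 12 libraries.

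At dusk the sharpest change was that of Rgs2, which shortens signalling by G protein-coupled receptors. It stood at 19.9 and 20.6 CPM at ZT0, 19.3 and 18.7 at ZT4, 51.6 and 32.0 at ZT8, 250.3 and 231 at ZT12, 45.8 and 45.9 at ZT16, and 31.3 and 36.6 at ZT20. Both ZT12 libraries, which come from different runs, stood far above the highest of the other 10 (51.6 CPM). A cosine does not follow so narrow a peak, and the fitted amplitude of 1.64 ± 0.26 (peak 12.8 ± 0.60 h, adjusted p = 0.0255) rests on it. Its 24 h call was lost without ZT4 replicate 1, ZT8 replicate 1, ZT12 replicate 2 or ZT20 replicate 1. In the test for any difference between the 6 times, which assumes no wave, Rgs2 had the lowest p of all genes (adjusted p = 2.3e-04). Trib1, a pseudokinase that directs proteins to degradation, was broader, at 33.6 and 33.7 CPM at ZT0 against 68.9 and 80.8 at ZT12 and 61.6 and 62.6 at ZT16 (amplitude 0.60 ± 0.07, peak 13.4 ± 0.42 h, adjusted p = 0.0112), and its call held without each library. Il6ra, a subunit of the interleukin 6 receptor, was at 356 and 379.8 CPM at ZT12 and between 152 and 284 CPM in the other 10 libraries (amplitude 0.53 ± 0.09, peak 12.3 h, adjusted p = 0.0337), and lost its call without 7 of the 12 libraries.

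In the night, Mdm1, Diras2 and Tubb2a held their calls without each library. Mdm1, a microtubule-binding protein of the centriole, stood at 248 and 231 CPM at ZT16, against 81.3 and 86.3 at ZT4 and 64.4 and 119 at ZT8 (amplitude 0.76 ± 0.09, peak 16.1 ± 0.46 h, adjusted p = 0.0116). Diras2, a small GTPase of the Ras family, was at 19.6 and 17.5 CPM at ZT16 and 15.2 and 14.9 at ZT20, above all of the other 10 libraries, which lay between 4.23 and 11.8 CPM (amplitude 0.99 ± 0.11, peak 18.0 ± 0.44 h, adjusted p = 0.0112). Tubb2a, a β-tubulin, stood at 53.8 and 49.1 CPM at ZT16 and 51.3 and 54.2 at ZT20, again above all other libraries (24.1 to 37.7 CPM), with an amplitude of 0.56 ± 0.06 and a peak at 18.8 ± 0.40 h (adjusted p = 0.00869). It has close copies among the tubulin genes, between which reads may be shared. Mthfd1l, an enzyme of mitochondrial folate metabolism, peaked at 16.1 h (amplitude 0.54 ± 0.07, adjusted p = 0.0137) and lost its call without ZT16 replicate 1. Pde10a, which breaks down cyclic nucleotides, had an amplitude of 1.29 ± 0.17 and a peak at 16.6 h (adjusted p = 0.0205), and lost its call without 4 of the 12 libraries.

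**Figure D4:**
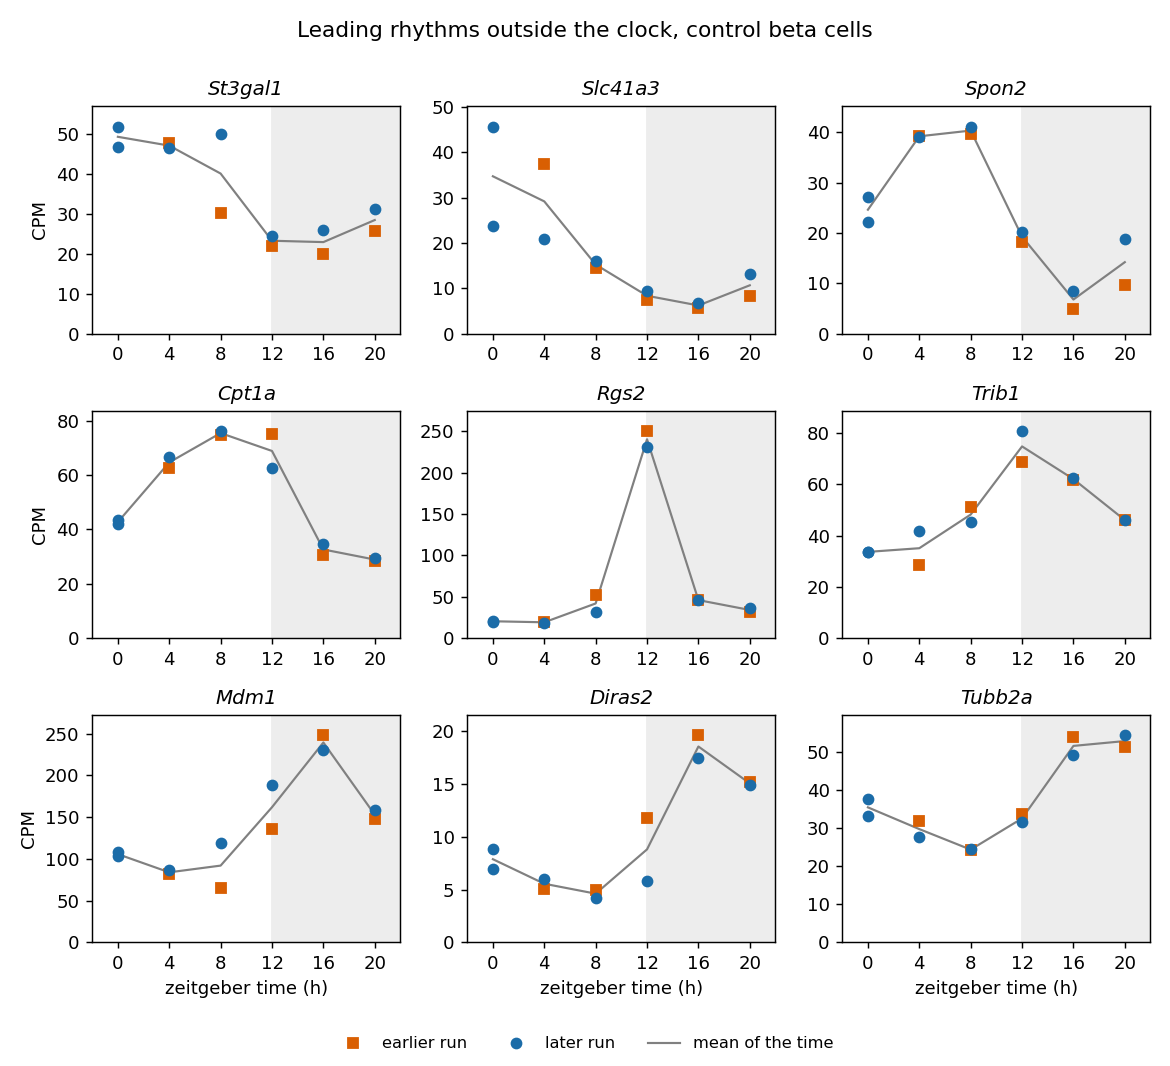
CPM (y axis, from 0) of 9 genes outside the clock that were called rhythmic in control β cells, against zeitgeber time in hours (x axis), 1 point per library (orange squares, earlier run; blue circles, later run), a grey line through the mean of each time and the dark phase shaded. Cpt1a stands highest from ZT4 to ZT12, Rgs2 has a single peak at ZT12 (250.3 and 231 CPM), and Diras2 and Tubb2a stand highest at ZT16 and ZT20.

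In the list of fat oxidation and the fasting response, Cpt1a and both other called members peaked by day. Of 28 measured members of this list, 3 were called and 14 had an unadjusted p under 0.05, beside 1.46% and 17.4% of all genes tested. Of these 14, 13 peaked from ZT2 to ZT10, as did 1315 of the 2864 genes of all with such a p, while the median amplitude of the list was 0.27 against 0.19 for all genes tested. Beside Cpt1a, the called members were Pdk2 and Pnpla2. Pdk2, a kinase that inhibits pyruvate dehydrogenase, had an amplitude of 0.56 ± 0.09 and a peak at 7.4 h (adjusted p = 0.0304). Pnpla2, the lipase that starts the breakdown of stored triglyceride, had an amplitude of 0.30 ± 0.05 and a peak at 7.0 h (adjusted p = 0.0453). Their calls were lost without 7 and 11 of the 12 libraries. Pdk2 stood at 49.6 and 34.3 CPM at ZT8 and 43.3 and 39.4 at ZT12 but at 20.6 and 21.7 at ZT16. Acaa2 of the β-oxidation spiral had an amplitude of 0.76 and a peak at 7.5 h with an adjusted p of 0.0508. Hadha and Cpt2 had amplitudes of 0.036 and 0.099. The acinar markers had their highest sum at ZT8 (288 CPM in replicate 2, 43.6 in replicate 1). Those with an unadjusted p under 0.05 had fitted peaks from 9.35 h, and no difference from the peak of Cpt1a was tested. With the mean of the acinar markers as a covariate 2 members of the list were called and 13 had an unadjusted p under 0.05. Left out in turn, the 12 libraries gave 10 to 16 members with an unadjusted p under 0.05. The number called was 8 without ZT20 replicate 2, 1 without either ZT4 or either ZT16 library, ZT8 replicate 1, ZT12 replicate 2 or ZT20 replicate 1, and 2 or 3 without any of the others.

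In the list of sterol and fatty acid synthesis, the called members Elovl6 and Lss peaked by night. Of 26 members, 2 were called and 11 had an unadjusted p under 0.05, beside 1.46% and 17.4% of all genes tested. Of these 11, 9 peaked from ZT14 to ZT22, as did 1172 of the 2864 genes of all with such a p. Elovl6, which lengthens fatty acids, stood at 60.3 and 68.0 CPM at ZT16 against 22.4 and 36.2 at ZT8 (amplitude 0.57 ± 0.08, peak 16.8 ± 0.54 h, adjusted p = 0.0227), and its call was lost without either ZT16 library. Lss, which closes the ring system of sterols, stood at 82.9 and 93.3 CPM at ZT16 against 41.8 and 55.5 at ZT4 (amplitude 0.44 ± 0.07, peak 17.5 ± 0.57 h, adjusted p = 0.0240). Hmgcs1 of the mevalonate pathway had an amplitude of 0.43 and a peak at 17.5 h (adjusted p = 0.0508), and Acly, which makes cytosolic acetyl-CoA, one of 0.39 and a peak at 18.4 h (adjusted p = 0.0855). Fasn and Srebf1 had amplitudes of 0.15 and 0.11 and were not called. The number called was 0 without either ZT16 library, 1 without ZT4, ZT8 or ZT20 replicate 1 or ZT12 replicate 2, 5 without ZT20 replicate 2, and 2 or 3 without any of the others, while 8 to 15 members had an unadjusted p under 0.05 in these fits. The call of Lss was lost without 6 of the 12 libraries.

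The chaperones that answer to heat shock factor were the list with the most calls. Of 18 members, 8 were called and 15 had an unadjusted p under 0.05, beside 1.46% and 17.4% of all genes tested. All 15 peaked between 16.9 and 18.9 h, while 1172 of the 2864 genes of all with such a p peaked from ZT14 to ZT22, with a median amplitude of 0.45 over the list. Hsp90aa1, the inducible HSP90, stood at 199 and 219 CPM at ZT0, 208 and 171 at ZT4, 157 and 213 at ZT8, 218 and 235 at ZT12, 456 and 435 at ZT16, and 408 and 316 at ZT20. All 4 libraries of ZT16 and ZT20 were above all others. Hsph1, an HSP110 that helps HSP70 to release its client, was at 264, 224, 221 and 209 CPM in these 4 libraries and at 56.7 to 130.2 CPM in the others, and Hspa8, the constitutive HSP70, was at 737 to 932 against 337 to 553 CPM. Chordc1, a partner of HSP90, was at 55.4 to 79.0 CPM against 33.7 to 47.2 CPM and was the member whose call held without each library. The call of Hsp90aa1 was lost without 4 and those of Hsph1 and Hspa8 without 6 of the 12 libraries. The amplitudes were 0.64 ± 0.10 for Hsp90aa1 (adjusted p = 0.0240), 0.78 ± 0.12 for Hsph1 (adjusted p = 0.0255), 0.55 ± 0.09 for Hspa8 (adjusted p = 0.0337) and 0.55 ± 0.07 for Chordc1 (adjusted p = 0.0116). The co-chaperones Stip1 and Ahsa1 and the mitochondrial pair Hspd1 and Hspe1 were called as well, with amplitudes of 0.53, 0.42, 0.33 and 0.49. Hspa1a and Hspa1b, near-identical copies whose reads may be split, stood at means of 3.91 and 2.51 CPM and were not called. Left out in turn, the 12 libraries gave 1 to 10 called members but 12 to 15 members with an unadjusted p under 0.05. The number called was 4 without ZT0 replicate 2, 2 without ZT4 replicate 1, 4 without ZT4 replicate 2, 1 without ZT8 replicate 1, 5 without ZT8 replicate 2, 2 without ZT12 replicate 2, and 1 without any single library of ZT16 or ZT20 replicate 1. The earlier run alone gave 5 called and 14 with an unadjusted p under 0.05, and the later run alone 0 and 11.

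The promoters of Chordc1 and Hsph1 are shown because they hold the element GAANNTTC, 2 facing units of the sequence that heat shock factor binds. The stretches again run from 170 bases before to 30 bases after the RefSeq start on GRCm38.p6, with GAANNTTC and, in Hsph1, the E-box CACGTG in capitals.
Chordc1: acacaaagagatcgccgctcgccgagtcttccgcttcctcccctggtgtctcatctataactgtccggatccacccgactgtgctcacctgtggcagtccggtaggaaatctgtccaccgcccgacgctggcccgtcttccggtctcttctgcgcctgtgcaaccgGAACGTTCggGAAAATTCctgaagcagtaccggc
Hsph1: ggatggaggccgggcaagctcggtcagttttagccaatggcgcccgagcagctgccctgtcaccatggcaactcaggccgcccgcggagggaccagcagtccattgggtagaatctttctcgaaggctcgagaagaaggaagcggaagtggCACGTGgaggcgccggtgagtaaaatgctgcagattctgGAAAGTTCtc
They lie at chr9:18292097-18292296 (plus strand) and chr5:149636286-149636485 (minus strand). Chordc1 has a pair of matches, starting 4 bases before and at base 7 after the start, and Hsph1 has 1, at base 21. Of the 15 list members with a window, 10 held GAANNTTC on either strand, against 9.04% of all genes in the promoter table and 6.94% of the tested genes with a window. The list was made of genes known to be bound by heat shock factor, so this share describes the list and not the rhythm. Of the 181 called genes with a window, which include members of the list, 21 held GAANNTTC (11.60%). The difference from the tested genes was not tested. Hspd1 and Hspe1 share a promoter, and Hspa1a and Hspa1b have near-identical ones.

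Among chaperones of the endoplasmic reticulum (ER), where insulin is folded, Pdia4 and Creld2 were called with peaks in the night. Of 20 members, 2 were called and 11 had an unadjusted p under 0.05, beside 1.46% and 17.4% of all genes tested. These 11 had peaks between 15.3 and 20.6 h, while 1172 of the 2864 genes of all with such a p peaked from ZT14 to ZT22. The median amplitude of the list was 0.28, against 0.19 for all genes tested. Pdia4, which forms disulfide bonds, stood at 312, 365, 358 and 322 CPM in the 4 libraries of ZT16 and ZT20 and at 146 to 256 CPM in the other 8 (amplitude 0.51 ± 0.10, peak 18.4 h, adjusted p = 0.0440). Creld2 of the same stress response had an amplitude of 0.63 ± 0.12 and a peak at 18.9 h (adjusted p = 0.0456). Hspa5, the chief chaperone of the ER, had an amplitude of 0.37 and an adjusted p of 0.0822, and Xbp1 one of 0.061. Both calls were lost without 9 of the 12 libraries, namely all but ZT0 replicate 1, ZT12 replicate 1 and ZT20 replicate 2, without which 5, 3 and 4 members were called. With the acinar covariate 0 members were called and 9 had an unadjusted p under 0.05. The cold-inducible RNA-binding proteins had the opposite phase. Cirbp stood at 75.2 to 144 CPM in the 8 libraries of ZT0 to ZT12 and at 32.0 to 44.3 CPM in the 4 of ZT16 and ZT20 (amplitude 0.85 ± 0.14, peak 6.5 ± 0.64 h, adjusted p = 0.0407), with the call lost without 7 of the 12. Rbm3 was at 11.8 to 19.3 CPM in the same 4 libraries and at 25.6 to 85.6 CPM in the others (amplitude 1.14 ± 0.21, peak 7.1 h, adjusted p = 0.0638) and was not called.

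**Figure D5:**
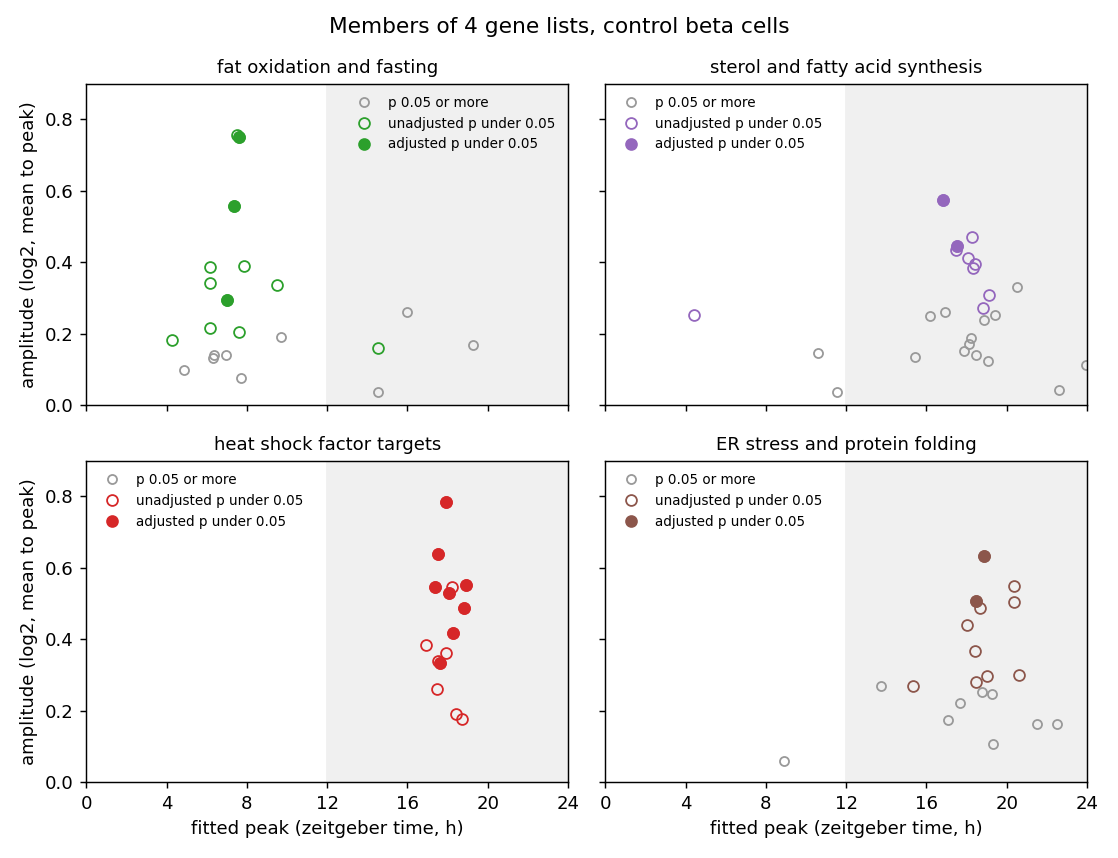
Amplitude (y axis, log2, mean to peak) against fitted peak in zeitgeber hours (x axis) for the members of 4 gene lists whose mean level in control β cells was 5 CPM or more, 1 point per gene, with the dark phase shaded. Filled points were called at an adjusted p under 0.05, open coloured points had only an unadjusted p under 0.05 and grey points neither. Heat shock members cluster between 16.9 and 18.9 h, and members of fat oxidation with a low p lie mostly from ZT4 to ZT10.

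Among genes of β-cell function single rhythms were called in most lists. Of 18 identity genes, 1 was called and 8 had an unadjusted p under 0.05, beside 1.46% and 17.4% of all genes tested. Left out in turn, the 12 libraries gave 0 to 3 called identity genes (3 without ZT20 replicate 2, 2 without ZT12 replicate 1, 1 without ZT0 replicate 2 and 0 without any of the others). This was Slc2a2, the glucose transporter GLUT2, at 1384 and 1475 CPM at ZT4 and 692 and 807 at ZT16 (amplitude 0.42 ± 0.08, peak 5.1 ± 0.73 h, adjusted p = 0.0453), and its call was lost without 10 of the 12 libraries and with the acinar covariate. Mafa, an activator of the insulin genes, stood at 332 to 367 CPM in the 4 libraries of ZT16 and ZT20 and at 128 to 158 CPM in the 4 of ZT8 and ZT12, but at 371 and 179 CPM at ZT0, and was not called (amplitude 0.70 ± 0.14, peak 20.5 h, adjusted p = 0.0623). Ins2 ranged from 159664 CPM (ZT0 replicate 2) to 296134 CPM (ZT4 replicate 2), with an amplitude of 0.15 ± 0.11 and an adjusted p of 0.736, and Ins1 had an amplitude of 0.14 ± 0.12 and an adjusted p of 0.774. Their sequences are close and reads may be shared between them. Pdx1, Nkx6-1 and Iapp had amplitudes of 0.13, 0.098 and 0.085.

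Of 23 genes of glucose metabolism, 2 were called and 7 had an unadjusted p under 0.05. Over all genes tested, here and for the next 3 lists, these shares were 1.46% and 17.4%. The called genes were Slc2a2 and the glycolytic Pgk1 (amplitude 0.32 ± 0.06, peak 19.0 h, adjusted p = 0.0483). The call of Pgk1 was lost without 10 of the 12 libraries. Of 22 genes of exocytosis, 1 was called and 5 had an unadjusted p under 0.05. Syt4, a synaptotagmin of the insulin granule, stood at 344 and 340.3 CPM at ZT16 and 324 and 330.3 at ZT20, above all other libraries (175 to 249 CPM), with an amplitude of 0.47 ± 0.08 and a peak at 16.9 h (adjusted p = 0.0340), and its call was lost without 7 of the 12 libraries. Of 21 ion channel genes, 0 were called and 6 had an unadjusted p under 0.05, among them Trpm5, a cation channel (amplitude 0.74 ± 0.17, peak 2.4 h, adjusted p = 0.0832), while the KATP channel genes Kcnj11 and Abcc8 had amplitudes of 0.088 and 0.050. Fitted by run, Trpm5 peaked at 0.49 h in the later and 6.04 h in the earlier run. In the test of the wave between runs its unadjusted p was 0.00153 and its adjusted p 0.948. Of 17 hormone and nutrient receptors, 1 was called and 5 had an unadjusted p under 0.05. The called gene was the somatostatin receptor Sstr3 (amplitude 0.36 ± 0.07, peak 14.8 h, adjusted p = 0.0443), whose call was lost without 10 of the 12 libraries. Glp1r, the receptor of the incretin GLP-1, had an amplitude of 0.29 ± 0.06 and an adjusted p of 0.0775.

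The other lists held 0 to 2 calls each, beside the 1.46% called and 17.4% with an unadjusted p under 0.05 of all genes. In the list of FOXO and insulin-response genes 1 of 17 was called (Trib1) and 11 had an unadjusted p under 0.05, among them Irs2, an adaptor of the insulin receptor (amplitude 0.61 ± 0.13, peak 16.6 h, adjusted p = 0.0855). Fitted by run, Irs2 peaked at 13.9 h in the later and 18.5 h in the earlier run. In the test of the wave between runs its unadjusted p was 8.26e-04 and its adjusted p 0.948. Of 16 targets of the glucocorticoid receptor 1 was called (Per1) and 7 had an unadjusted p under 0.05, all with peaks between 12.4 and 17.3 h. Of these 7, 4 peaked from ZT14 to ZT22, as did 1172 of the 2864 genes of all with such a p. Of 15 genes that cycle in many tissues 2 were called, Pnpla2 and the cell-cycle kinase Wee1 (amplitude 0.47 ± 0.09, peak 13.5 h, adjusted p = 0.0461), and each of these calls was lost without 11 of the 12 libraries. None was called among 19 genes of the amino acid response, 22 of autophagy, 19 immediate early genes, 20 of the antioxidant response and 38 ribosomal protein genes. For these lists the counts at an unadjusted p under 0.05 were 7, 4, 5, 4 and 4. Without ZT20 replicate 2 the same lists gave 1, 3, 1, 1 and 0 called members and 6, 8, 5, 6 and 21 at an unadjusted p under 0.05. Without ZT0 replicate 1 and ZT12 replicate 1, 2 and 1 immediate early genes were called, and no other library left out gave a call in these lists. At an unadjusted p under 0.05 the ribosomal protein genes numbered 10 without ZT8 replicate 2, 6 without ZT0 replicate 2, 3 without ZT4 replicate 1 or either library of ZT12, and 0 to 2 without any of the others, and the genes of the amino acid response 3 without ZT4 replicate 1. Of the 38 ribosomal protein genes 34 had fitted peaks from ZT2 to ZT10, beside 6157 of 16461 genes over all. Of 28 cell-cycle genes 1 was called (Wee1) and of 26 nuclear genes of the respiratory chain 1.

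The shape of the rhythms was tested in 2 further ways. Any difference between the 6 times was called for 26 genes (0.158%), 15 of which were also called as 24 h rhythms, and the lowest p after Rgs2 were those of Fh1 and Cpt1a. Fh1, the fumarase of the citric acid cycle, stood at 233 and 244 CPM at ZT16 and 191 and 187 at ZT20 and at 82.3 to 119 CPM in the other 8 libraries (adjusted p = 0.0111), and it overlaps Kmo. The number of genes called in this test was 7 and 42 without replicate 1 and 2 of ZT0, 1 without ZT4 replicate 1 or either library of ZT16, 14 without ZT4 replicate 2 or ZT12 replicate 1, 16 without ZT12 replicate 2, and 38 and 52 without replicate 1 and 2 of ZT20. A 12 h component beside the 24 h wave was called for 0 genes by edgeR (0%; 1508 at an unadjusted p under 0.05, or 9.16%) and for 168 by DESeq2.

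The rhythms of control β cells were set beside those of control α cells and of β cells from doxycycline mice by testing the difference of both wave terms. The same 12 control β libraries enter both comparisons. Against α cells 0 of 17411 genes were called by edgeR (0%), 1055 had an unadjusted p under 0.05 (6.06%), and DESeq2 called 104. Against doxycycline β cells 0 of 17671 genes were called by edgeR (0%), 863 had an unadjusted p under 0.05 (4.88%), and DESeq2 called 16. Without ZT20 replicate 2 of the control β cells 36 genes were called against α cells and 1 against doxycycline β cells, and without any other control β library 0 to 3 and 0 to 1. Arntl had an amplitude of 1.34 and a peak at 0.58 h in α cells and of 1.18 and 1.19 h in doxycycline β cells, against 1.37 and 22.8 h in control β cells (adjusted p of the difference 0.851 and 0.888). Cry1 peaked at 22.2 h in α cells and 22.02 h in doxycycline β cells, against 19.5 h in control β cells (adjusted p 0.566 and 0.888). Cpt1a had amplitudes of 0.83 and 0.67 with peaks at 8.30 and 9.01 h (adjusted p 1 and 1), and Hsp90aa1 amplitudes of 0.61 and 0.67 with peaks at 19.0 and 18.9 h (adjusted p 0.958 and 1). Spon2 had an amplitude of 0.27 in α cells against 1.17 in control β cells (unadjusted p = 2.2e-05, adjusted p = 0.127) and 1.09 in doxycycline β cells. Nr1d1 and Diras2 differed most in their fitted waves from α cells among the genes above, by 1.81 and 1.42 on the log2 scale (adjusted p = 0.142 and 0.140). In the 12 control α libraries Diras2 read only 0.0952 to 0.999 CPM, so its wave there was fitted at a very low level. None of these differences passed the threshold, which does not show that the rhythms were alike.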

How the data were processed

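RNA was sequenced from sorted β cells on 2 Illumina platforms after polyA selection with an unstranded TruSeq kit, per the labels' protocols. Reads were handled with bcl2fastq and STAR on GRCm38, per the submitters' processing notes, and the counting program is not given in the sources used here. The authors deposited estimated counts per gene, which need not be whole; with a tolerance of 1e-06, 56.0% of the nonzero values were whole, and even numbers made up 99.9% of the whole ones no larger than 20. They were rounded here. The members and gene lists were chosen with earlier results of these data known.

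Genes were kept by filterByExpr (count of 10, total of 15, over the 6 times), scaled by TMM and tested with edgeR 4.0.16 in R 4.3.3 (quasi-likelihood F test of a cosine and sine of 24 h, with the run as a term, Benjamini-Hochberg threshold of 0.05); CPM were computed from the counts with the same scaling. A 12 h pair of terms, any difference between times, and the wave terms by cell type or treatment were tested alike. DESeq2 1.42.0 and limma 3.58.1 served as alternatives, beside other scaling, filters, runs alone, marker covariates and leaving out each library, and scripts were tested on simulated data. Totals were 22.3 to 69.9 M counts per library.

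Named genes were the markers, the clock genes, Ins1 and Ins2, the 24 lowest p and 12 largest amplitudes outside the clock, the 4 lowest p in each peak window and each list, and the 6 lowest p of the 12 h test and 8 of each comparison; predicted genes were passed over. Members named beyond this set as not called (such as Hadha, Fasn and Xbp1) were chosen after their values were seen. A few genes counted in the lists are not reported here by name.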

Additional observations from a re-analysis of the deposited data

How the results depend on the processing

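The number of genes called for the 24 h rhythm was within 1.5 times of 241 with RLE size factors, no filter, a filter on the model terms, halved counts, limma, ZT0 left out and the replicate block. It was 149 without the run term, 1323 by DESeq2, 1 in the later and 142 in the earlier run alone (43 of them shared with the 241), 80 with acinar and 386 with macrophage markers as a covariate, and 19 to 700 with a library left out. Any difference between times was called for 378 genes without a filter, 92 with the replicate block, 5 without the run term, 14 with ZT0 left out and 1 to 52 with a library left out, against 26. The 12 h component was called for 168 genes by DESeq2. The difference from α cells was called for 3 genes without a filter, 1 with the replicate block, 104 by DESeq2 and 0 to 36 with a library left out, and that from doxycycline β cells for 16 by DESeq2 and 0 to 1 with a library left out. The causes were not tested.

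Of 60 named genes called, 9 were called in all 12 fits that left out a library and 24 in fewer than 6. They numbered 60 with RLE, halved counts, DESeq2 and the macrophage covariate, 57 without a filter and by limma, 56 with the replicate block, 54 with ZT0 left out, 47 without the run term, 37 with the acinar covariate, 24 in the earlier and 0 in the later run alone. No peak moved by more than 2.27 h in these fits. The differences of replicate 1 minus replicate 2 correlated over 0.1 for 13 of 15 pairs of times (from -0.07 to 0.45). Pairs with ZT0, whose libraries both came from the later run, gave 0.19 to 0.45. At the other times replicate and run are the same split and cannot be told apart. With the replicate block 256 genes were called, 205 of them among the 241. With 2 libraries per time, 1 of them came from each run except at ZT0. Between the libraries of a time, chi-square per degree of freedom was 20.6 to 52.0 on halved counts, where counting error alone gives 1. Since nearly all low whole counts are even, fragments may have been counted in pairs, and the library totals would then be lower by that factor. The chi-square ratio already allows for this, since it was taken on halved counts. The part of depth in the number of calls was not tested.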
